A study of Mus musculus with 8 samples.

Results

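Chemokine ligands are small secreted proteins, grouped by the spacing of their conserved cysteines, that guide leukocytes through G protein-coupled receptors. The ligand genes Ccl1, Ccl3, Ccl4, Ccl5, Ccl6, Ccl9, Ccl22, Xcl1, Cxcl10 and Cxcl16 were followed here in EL4 cells, a C57BL/6 mouse T lymphoblast line. They were taken by the gene symbol in the deposited transcript identifiers and are 10 of 54146 genes. The list was chosen with earlier results of these data known, and all 10 are reported. Retroviral transduction had produced 4 lines. The GFP + Plum line carried the fluorescent proteins GFP and Plum and no introduced T-bet or GATA3. The T-bet + Plum line carried FLAG-tagged T-bet with Plum, the GFP + GATA3 line carried HA-tagged GATA3 with GFP, and the T-bet + GATA3 line carried both factors. EL4 cells also express their own Gata3, and cells of every line had been stimulated for 4 h with ionomycin at 1 μM together with the phorbol ester PMA at 50 ng/ml, so no unstimulated cells enter any comparison. Each line had 2 libraries of polyadenylated RNA, 8 in all. The study describes replicates as harvests of a line on different days, so each genotype is represented by 1 line, and p-values measure the spread between harvests.

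T-bet, encoded by Tbx21, is the lineage-determining factor of TH1 cells, and GATA3 is that of TH2 cells. Ccl3, Ccl4 and Ccl5 are typical products of activated cytotoxic and TH1 lymphocytes. Ccl1 and Ccl22 bind Ccr8 and Ccr4, receptors associated with TH2 and regulatory T cells, whereas Cxcl10 binds the TH1 receptor Cxcr3. PMA and ionomycin replace the signals of the T cell receptor, activating protein kinase C and calcium-dependent factors such as NFAT.

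The total per library was between 8038565 estimated counts (T-bet + Plum library 1) and 16003519 (GFP + Plum library 2). Levels are given as CPM, the usual depth-scaled count of a gene, on TMM-scaled library sizes. A gene with 0 counts could be present at up to 0.187 to 0.373 CPM, the level of 3 counts in the deepest and the shallowest library, and this limit covers counting error only. Differences were tested in edgeR over 14791 genes, and a gene was called when its false discovery rate (FDR) was at most 0.05 and its log2 fold change (log2 FC) was above 1.5 in size. Tbx21 was at 129 and 159 CPM in T-bet + Plum, at 135 and 160 CPM in T-bet + GATA3 and at 1.78 to 3.59 CPM in the lines without FLAG-T-bet. Gata3 was at 283 and 326 CPM in GFP + GATA3 and at 204 and 165 CPM in T-bet + GATA3. It was at 39.8 and 53.3 CPM in GFP + Plum and at 25.8 and 34.9 CPM in T-bet + Plum. Both factors were thus higher in every library labelled to carry them than in any other.

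Of the 10 ligand genes, 5 lie in the same stretch of mouse chromosome 11 (GRCm38, gene spans of Gencode M21). Ccl5 occupies chr11:83525778-83530518, Ccl9 chr11:83572919-83578636, Ccl6 chr11:83587882-83593087, Ccl3 chr11:83647844-83649355 and Ccl4 chr11:83662584-83664683. The stretch from Ccl5 to Ccl4 is 139 kb long. E230016K23Rik and Rpl9-ps1, which did not pass the filter on low counts, also lie within it. Ccl1 (chr11:82176657-82305690, a span that includes a long transcript without coding sequence) and Cxcl16 (chr11:70453983-70459984) are on the same chromosome outside that stretch. Xcl1 is at chr1:164931644-164935527, Cxcl10 at chr5:92346638-92348889 and Ccl22 at chr8:94745590-94751699. No sequence of 31 bases, the length assumed here for matching reads to transcripts, was shared between any of the ligands. Sequence shared with genes outside the family made up 14.2% of the Xcl1 total (with Gm20743, on the opposite strand, which had 0 counts), 18.5% for Cxcl16, 4.47% for Cxcl10, 3.98% for Ccl9 and at most 1.02% for the others.

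The 250 bases before the RefSeq start site (GRCm38.p6) are shown for 5 ligands, because Ccl3, Ccl9, Ccl1 and Xcl1 were called together in the comparisons that follow and Cxcl10 was not. All 5 are on the minus strand and are written 5′ to 3′. They cover chr11:83649379-83649628 for Ccl3, chr11:83578637-83578886 for Ccl9, chr11:82179813-82180062 for Ccl1, chr1:164935523-164935772 for Xcl1 and chr5:92348890-92349139 for Cxcl10. Capitals mark matches, on either strand, to the T-box letters TCACACC. They also mark AGATAA, bound by GATA factors, and its variant TGATAA. The core of NFAT sites, GGAAA, and the interferon-stimulated response element GAAANNGAAA are marked in the same way.
Ccl3: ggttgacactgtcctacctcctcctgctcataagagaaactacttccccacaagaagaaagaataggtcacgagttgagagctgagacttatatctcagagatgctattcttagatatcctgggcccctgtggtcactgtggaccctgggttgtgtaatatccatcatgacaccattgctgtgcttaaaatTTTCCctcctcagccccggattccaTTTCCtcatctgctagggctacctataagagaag
Ccl9: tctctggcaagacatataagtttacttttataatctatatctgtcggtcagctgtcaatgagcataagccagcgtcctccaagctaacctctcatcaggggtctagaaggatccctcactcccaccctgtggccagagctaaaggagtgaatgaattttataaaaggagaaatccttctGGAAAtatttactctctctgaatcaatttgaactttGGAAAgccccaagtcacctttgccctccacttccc
Ccl1: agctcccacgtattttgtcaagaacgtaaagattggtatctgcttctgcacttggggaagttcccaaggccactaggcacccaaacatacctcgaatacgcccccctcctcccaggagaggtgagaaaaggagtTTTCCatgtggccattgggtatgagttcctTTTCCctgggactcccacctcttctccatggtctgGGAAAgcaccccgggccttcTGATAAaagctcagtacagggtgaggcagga
Xcl1: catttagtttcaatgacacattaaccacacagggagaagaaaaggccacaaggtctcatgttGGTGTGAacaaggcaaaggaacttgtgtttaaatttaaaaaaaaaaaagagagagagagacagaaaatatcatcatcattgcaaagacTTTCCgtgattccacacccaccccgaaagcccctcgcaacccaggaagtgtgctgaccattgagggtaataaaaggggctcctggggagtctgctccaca
Cxcl10: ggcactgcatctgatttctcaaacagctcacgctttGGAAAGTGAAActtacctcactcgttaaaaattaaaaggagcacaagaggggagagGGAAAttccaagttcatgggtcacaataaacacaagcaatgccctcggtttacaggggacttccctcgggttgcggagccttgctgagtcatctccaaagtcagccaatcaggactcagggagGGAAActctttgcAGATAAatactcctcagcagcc

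RefSeq windows were matched for 7 of the 10 ligands, and Ccl4, Ccl5 and Cxcl16 had no entry. GGAAA was found in 5 of the 7 windows, against 55.6% of the 32851 mouse windows of the same length. The T-box letters were found in 1 of the 7, that of Xcl1, where they begin at base -188 from the start on the opposite strand (3.33% of all windows). AGATAA was found in that of Cxcl10 (9.99% of all windows) and TGATAA in that of Ccl1 (7.94%). The interferon element was found in that of Cxcl10 (2.98% of all windows), where it overlaps a GGAAA. The Ccl6 and Ccl22 windows held none of these letters. A match describes the letters and not binding.

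The first question was how the ligands differed when T-bet was expressed. T-bet + Plum was compared with GFP + Plum, and T-bet + GATA3 with GFP + GATA3, which share no libraries. Ccl3, Ccl4, Ccl9, Xcl1 and Ccl1 rose in both comparisons, by 6.48-fold (Ccl1) to 239-fold (Xcl1) without ectopic GATA3 and by 8.85-fold (Ccl1) to 478-fold (Xcl1) with it. Ccl5, Ccl22 and Cxcl10 did not pass the test in either, and Ccl6 and Cxcl16 had 0 counts in all 8 libraries. The 5 called ligands are 5 of the 8 that passed the filter on low counts. Among all genes tested, 2.12% were called higher in T-bet + Plum than in GFP + Plum and 1.99% in T-bet + GATA3 than in GFP + GATA3. In bulk RNA, fewer cells that express a gene and less RNA per cell cannot be told apart.

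**Figure D1:**
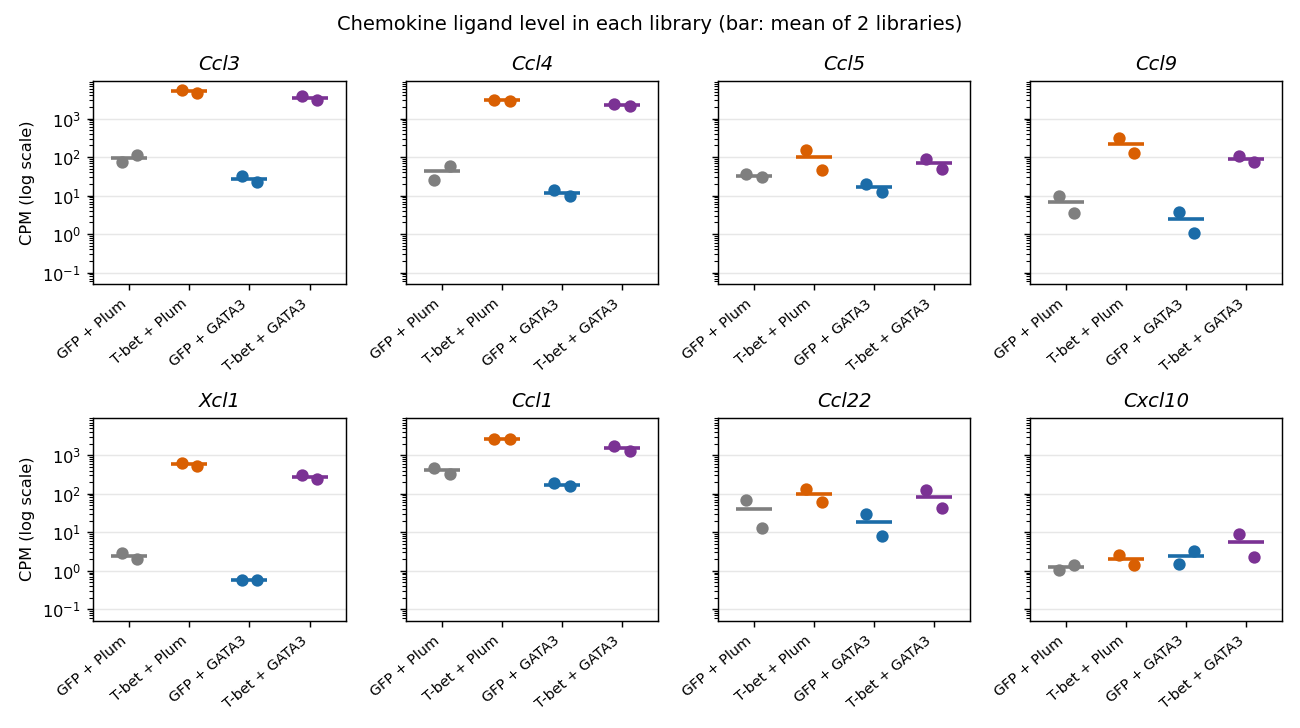
Level of 8 chemokine ligands in each library, in CPM on a log scale, by line; points are libraries 1 (left) and 2 (right) and bars are the mean of 2 libraries. Ccl3, Ccl4, Ccl9, Xcl1 and Ccl1 sit higher in the 4 libraries with T-bet than in the 4 without. The same holds for Ccl5, which did not pass the test, whereas the libraries of Ccl22 and Cxcl10 overlap between lines.

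Ccl3, which encodes the macrophage inflammatory protein MIP-1α, a ligand of Ccr1, was at 74.9 and 115 CPM in GFP + Plum, 5418 and 4648 in T-bet + Plum, 33.0 and 21.9 in GFP + GATA3 and 3906 and 2994 in T-bet + GATA3. The 4 libraries with T-bet were far above the other 4, with no overlap. On the log2 scale Ccl3 rose by 5.73 ± 0.32 (SE, FDR = 7.86e-05, edgeR) without ectopic GATA3 and 6.98 ± 0.34 (FDR = 7.08e-05) with it. Ccl4, which encodes MIP-1β, had the same order of lines. It was at 25.5 and 59.7 CPM in GFP + Plum, 3031 and 2883 in T-bet + Plum, 13.6 and 9.57 in GFP + GATA3 and 2434 and 2128 in T-bet + GATA3. Its log2 FC was 6.12 ± 0.42 (FDR = 0.000204, edgeR) without ectopic GATA3 and 7.63 ± 0.45 (FDR = 0.000106) with it. Ccl3 and Ccl4 each have 1 annotated transcript, so no isoforms enter these values.

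Ccl5, or RANTES, attracts T cells and monocytes and differed less than the former pair. It was at 36.0 and 30.2 CPM in GFP + Plum, 154 and 45.6 in T-bet + Plum, 20.2 and 12.3 in GFP + GATA3 and 89.0 and 48.5 in T-bet + GATA3. Both T-bet libraries were above both libraries without T-bet in each comparison, but the T-bet + Plum libraries were 3.38-fold apart. Neither its log2 FC of 1.58 ± 0.53 (FDR = 0.145, edgeR) without ectopic GATA3 nor that of 2.09 ± 0.56 (FDR = 0.0734) with it passed the test. Ccl5 passed the threshold without T-bet + Plum library 2 in the first comparison (log2 FC 2.22, FDR = 0.0445, edgeR) and with DESeq2 in the second (FDR = 0.0425). It also passed in the second when either T-bet + Plum library was left out, although neither enters that contrast (FDR = 0.0230 and 0.0232, edgeR).

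Ccl9, a rodent ligand of Ccr1 also called MIP-1γ, was at 9.96 and 3.49 CPM in GFP + Plum, 304 and 128 in T-bet + Plum, 3.73 and 1.08 in GFP + GATA3 and 106 and 73.8 in T-bet + GATA3. The libraries with T-bet did not overlap those without, although libraries of a line were up to 3.46-fold apart. Its log2 FC was 4.996 ± 0.65 (FDR = 0.00425, edgeR) without ectopic GATA3 and 5.32 ± 0.72 (FDR = 0.00512) with it. Protein-coding transcripts held 81.8% to 95.1% of the Ccl9 counts, and a shorter transcript without coding sequence held the rest. Ccl6, the neighbour of Ccl9 and also a rodent ligand of Ccr1, had 0 counts in every library, so no difference was detectable at this depth.

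Xcl1, or lymphotactin, is the ligand of Xcr1, a receptor of cross-presenting dendritic cells, and had the largest log2 FC of the 8 ligands. It was at 2.91 and 1.97 CPM in GFP + Plum, 645 and 524 in T-bet + Plum, 0.574 and 0.571 in GFP + GATA3 and 309 and 247 in T-bet + GATA3. The 2 GFP + GATA3 libraries held 6 and 9 counts, against 5185 and 7667 counts in T-bet + Plum. Xcl1 rose by a log2 FC of 7.90 ± 0.25 (FDR = 5.26e-06, edgeR) without ectopic GATA3 and 8.90 ± 0.29 (FDR = 6.24e-06) with it.

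Ccl1, whose receptor is Ccr8, was already high in cells without T-bet. It was at 473 and 334 CPM in GFP + Plum, 2666 and 2564 in T-bet + Plum, 185 and 158 in GFP + GATA3 and 1750 and 1284 in T-bet + GATA3. The groups did not overlap, and the libraries of T-bet + Plum were 1.04-fold apart. For Ccl1 the log2 FC was 2.70 ± 0.22 (FDR = 0.000475, edgeR) without ectopic GATA3 and 3.15 ± 0.22 (FDR = 0.000232) with it. Protein-coding transcripts held at least 99.6% of Ccl1 counts in every library.

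Ccl22, a ligand of Ccr4 usually made by macrophages and dendritic cells, was at 66.8 and 12.6 CPM in GFP + Plum, 133 and 60.4 in T-bet + Plum, 29.5 and 7.93 in GFP + GATA3 and 125 and 43.6 in T-bet + GATA3. The libraries of a line differed by 2.21-fold to 5.32-fold, and GFP + Plum library 1 was above T-bet + Plum library 2. Library 1 was the higher in all 4 lines, and among libraries of the same number those with T-bet were above those without. The log2 FC was 1.28 ± 0.86 (FDR = 0.479, edgeR) without ectopic GATA3 and 2.19 ± 0.91 (FDR = 0.231) with it. Cxcl10, an interferon-induced ligand of Cxcr3, was at 1.05 and 1.40 CPM in GFP + Plum, 2.61 and 1.44 in T-bet + Plum, 1.53 and 3.30 in GFP + GATA3 and 9.19 and 2.26 in T-bet + GATA3. These levels rest on 16 to 85 counts per library, and only T-bet + GATA3 library 1 stood apart. The Cxcl10 log2 FC was 0.68 ± 0.73 (FDR = 0.686, edgeR) without ectopic GATA3 and 1.18 ± 0.66 (FDR = 0.382) with it, and the latter became -0.14 without T-bet + GATA3 library 1. Cxcl16, the membrane-bound ligand of Cxcr6, had 0 counts in every library.

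**Figure D2:**
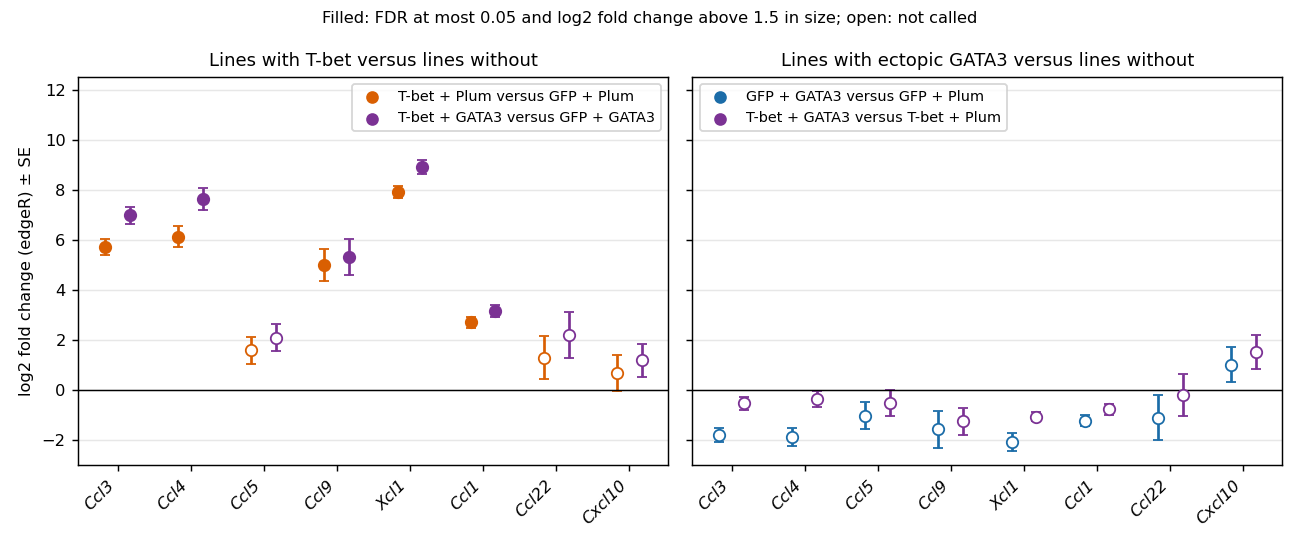
The log2 fold changes of 8 ligands from edgeR, with approximate standard errors (n = 2 libraries per line), for lines with T-bet against lines without (left) and lines with ectopic GATA3 against lines without (right); filled points passed the threshold. All filled points are on the left, and every point for Ccl3, Ccl4, Ccl5, Ccl9, Xcl1, Ccl1 and Ccl22 on the right is below 0.

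The libraries were also compared one by one. In each T-bet comparison, both T-bet libraries were above both others for 7 of the 8 tested ligands, the exception being Ccl22 without ectopic GATA3 and Cxcl10 with it. The share of all genes tested with this arrangement was 25.9% without ectopic GATA3 and 26.5% with it. The T-bet + GATA3 line was also compared with the control line GFP + Plum. That comparison reuses the GFP + Plum libraries of the first T-bet comparison and the T-bet + GATA3 libraries of the second. It is therefore not separate evidence. There Xcl1 (log2 FC 6.83 ± 0.24), Ccl4 (5.74 ± 0.41), Ccl3 (5.18 ± 0.31), Ccl9 (3.74 ± 0.62, FDR = 0.0137, edgeR) and Ccl1 (1.91 ± 0.21, FDR = 0.00225, edgeR) rose, 5 of the 8 tested against 1.94% of all genes. Ccl9 was not called without T-bet + GATA3 library 1 (log2 FC 3.43, FDR = 0.0557, edgeR). The log2 FC was 2.19 ± 0.69 for Cxcl10 (FDR = 0.136, edgeR), 1.08 ± 0.86 for Ccl22 and 1.05 ± 0.53 for Ccl5, none of which passed. Cxcl10 was called without T-bet + GATA3 library 2 (log2 FC 2.86, FDR = 0.0354, edgeR) and with DESeq2 (FDR = 0.0408).

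The clustered ligands were next set beside the others. Of the cluster, 4 of 5 genes were tested, and 3 of those 4 (Ccl3, Ccl4 and Ccl9) were called higher with T-bet in both comparisons. Of the ligands elsewhere, 4 of 5 were tested, and 2 of those 4 (Xcl1 and Ccl1) were called higher in both. Among all genes tested, 2.12% were called higher without ectopic GATA3 and 1.99% with it. The median log2 FC was 5.36 in the cluster and 1.99 elsewhere without ectopic GATA3, and 6.15 and 2.67 with it. The median over all genes tested was 0.01 in both comparisons. Each set spanned a wide range, from 1.58 (Ccl5) to 6.12 (Ccl4) in the cluster and from 0.68 (Cxcl10) to 7.90 (Xcl1) elsewhere without ectopic GATA3. The ligand with the largest log2 FC was therefore outside the cluster, and the cluster held one that did not pass and one with 0 counts.

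Genes beside the cluster were examined over 250 kb on each side. Of 27 such genes, 7 were tested and 13 had 0 counts in all libraries. Heatr9, the nearest tested gene on the Ccl5 side (chr11:83511736-83522175), was the 1 of 7 called higher in T-bet + Plum than in GFP + Plum (log2 FC 3.14, FDR = 0.0470, edgeR), against 2.12% of all genes. Its level was low, at 0.124 and 0.127 CPM in GFP + Plum and 1.37 and 1.03 CPM in T-bet + Plum, from 54 counts over all libraries. It was not called in T-bet + GATA3 against GFP + GATA3 (log2 FC 2.39, FDR = 0.127). Heatr6, the nearest tested gene on the Ccl4 side (chr11:83753696-83783754), was at 43.3 and 44.0 CPM in GFP + Plum and 63.8 and 54.0 CPM in T-bet + Plum and did not pass (log2 FC 0.43, FDR = 0.126, edgeR). The median log2 FC of the 7 neighbours was 0.03 without ectopic GATA3 and 0.0037 with it.

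Because the ligands differ in transcript length, levels were compared between genes in TPM, transcript abundance corrected for transcript length and for library depth. The summed TPM of the 10 ligands was between 496 and 1537 in the libraries without T-bet and between 12235 and 22202 in those with it. Ccl1 was the highest of the ligands in all 4 libraries without T-bet and made up 68.0% to 80.8% of their sum. Ccl3 was the highest in all 4 libraries with T-bet, at 35.8% to 38.3% of the sum, and the Ccl1 share there was 24.8% to 30.5%. Ccl4 made up 3.26% to 9.28% without T-bet and 24.6% to 31.4% with it. The share of the clustered genes together was 17.2% to 30.7% without T-bet and 63.0% to 70.2% with it. Ccl5 had a smaller share with T-bet, 0.521% to 1.58% against 5.78% to 7.93%, although its own TPM was not lower there.

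Ranked by mean TPM among all 54146 genes, Ccl3 was number 9 in T-bet + Plum, Ccl1 number 12 and Ccl4 number 15, and in GFP + Plum they were number 880, 177 and 1656. In T-bet + GATA3 these ligands ranked 16, 26 and 23. Xcl1 was number 124 in T-bet + Plum and number 8827 in GFP + Plum. The ratio of Ccl3 to Ccl4 TPM was 1.64 to 2.49 without T-bet and 1.19 to 1.51 with it, and the ratio of Ccl3 to Ccl1 TPM was 0.0895 to 0.223 without and 1.17 to 1.51 with it. Neighbours in the order of levels within a line were not tested against each other.

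**Figure D3:**
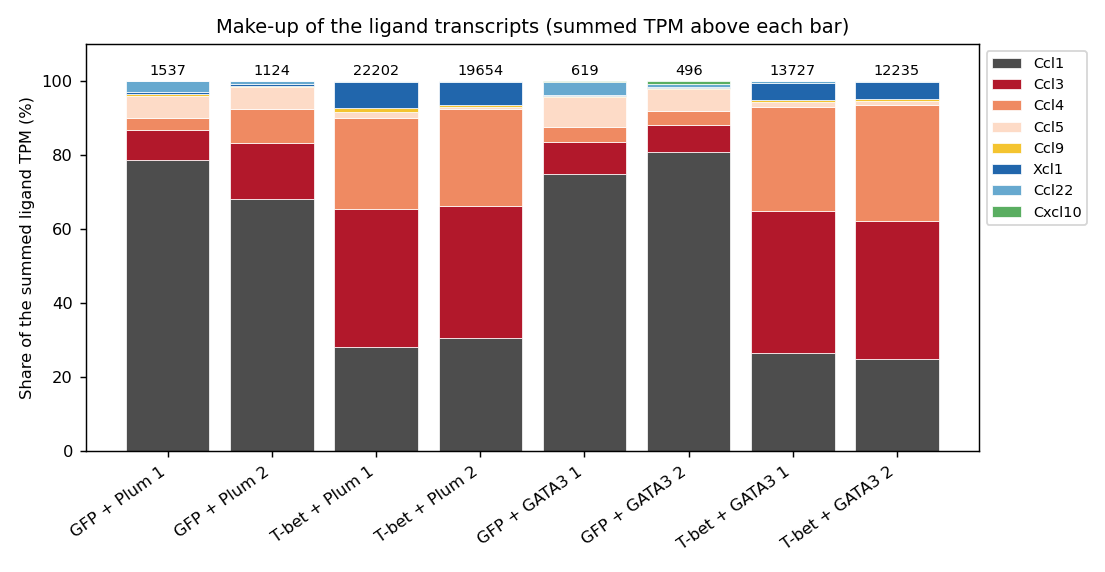
Share of each ligand in the summed ligand TPM of each library, in percent, with the sum above each bar. Ccl1 (dark grey) fills most of the bars without T-bet, and Ccl3 and Ccl4 (red and orange) fill most of the bars with T-bet.

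The second question was whether ectopic GATA3 altered the ligands. No ligand was called in GFP + GATA3 against GFP + Plum by edgeR, where 0.0203% of all genes tested (3 genes) were called. At an unadjusted p under 0.05, 4 of the 8 tested ligands (Ccl3, Ccl4, Xcl1 and Ccl1) were lower, against 1.53% of all genes tested. DESeq2 called 3 of them, Ccl3 (FDR = 2.61e-09), Ccl4 (FDR = 1.20e-06) and Xcl1 (FDR = 0.00197), all lower. Ccl1 passed the FDR in DESeq2 but its fold was under the threshold (log2 FC -1.23, FDR = 3.15e-06). In edgeR, Ccl4 was called without GFP + Plum library 1 (log2 FC -2.38, FDR = 0.0385). The log2 FC was -2.07 ± 0.36 for Xcl1 (FDR = 0.239, edgeR), -1.89 ± 0.37 for Ccl4 (FDR = 0.389), -1.80 ± 0.28 for Ccl3 (FDR = 0.165) and -1.24 ± 0.21 for Ccl1 (FDR = 0.239). Both GFP + GATA3 libraries were below both GFP + Plum libraries for these 4 ligands and for Ccl5 (log2 FC -1.04 ± 0.55), 5 of 8 against 13.1% of all genes. The libraries overlapped for Ccl9 (-1.59 ± 0.74) and Ccl22 (-1.11 ± 0.89), and Cxcl10 was higher in both GFP + GATA3 libraries (1.00 ± 0.70) without passing.

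T-bet + GATA3 was compared with T-bet + Plum in libraries separate from those. edgeR called 0.0338% of all genes tested (5 genes) and no ligand, and DESeq2 also called no ligand. At an unadjusted p under 0.05, 3 of the 8 (Xcl1, Ccl1 and Ccl9) were lower, against 1.90% of all genes. The log2 FC was -1.26 ± 0.54 for Ccl9 (FDR = 1, edgeR), -1.07 ± 0.18 for Xcl1 (FDR = 0.247), -0.79 ± 0.21 for Ccl1 (FDR = 0.881), -0.54 ± 0.26 for Ccl3 and -0.37 ± 0.33 for Ccl4. For these 5 ligands both T-bet + GATA3 libraries were below both T-bet + Plum libraries, 5 of 8 against 16.0% of all genes. The libraries overlapped for Ccl5 (-0.54 ± 0.52), Ccl22 (-0.20 ± 0.85) and Cxcl10 (1.51 ± 0.69). Ccl1, Ccl3, Ccl4 and Xcl1 were thus the 4 ligands whose libraries were lower with ectopic GATA3 and did not overlap in either setting, 4 of 8 against 2.93% of all genes. The sum of ligand TPM was also lower in both libraries of each line with ectopic GATA3, as the plot of TPM shares shows.

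The third question was whether T-bet and GATA3 acted differently together than apart, tested as the interaction of the 2 factors. The interaction is the log2 FC with T-bet in cells with ectopic GATA3 minus that in cells without, and it was called by FDR alone. edgeR called 0 of 14791 genes (0%) and no ligand, and DESeq2 called 10 genes and no ligand. At an unadjusted p under 0.05, 3 of the 8 ligands differed, against 2.58% of all genes. They were Ccl4 (1.52 ± 0.50), Ccl3 (1.26 ± 0.38) and Xcl1 (1.00 ± 0.41), each with an FDR of 1.00. The value was above 0 for all 8 tested ligands, and for 7505 of all 14791 genes, but it fell below 0 for Ccl5, Ccl9, Ccl22 and Cxcl10 when 1 library or another was left out. A larger effect of T-bet on these ligands in cells with ectopic GATA3 was therefore not shown.

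The receptors of these ligands were examined as a list. Of 7 receptors, Ccr8, Cxcr3, Cxcr6 and Ccr4 were tested, and Ccr1, Ccr3 and Xcr1 were at most 0.34 CPM in any library. Receptors called higher numbered 2 of 4 in T-bet + Plum against GFP + Plum, 3 of 4 in T-bet + GATA3 against GFP + GATA3 and 3 of 4 in T-bet + GATA3 against GFP + Plum. Among all genes tested, 2.12%, 1.99% and 1.94% were called higher, in the same order. One receptor, Ccr4, was called lower, in T-bet + GATA3 against GFP + GATA3, where 0.859% of all genes were. No receptor was called by edgeR in either comparison of ectopic GATA3.

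Ccr8, the receptor of Ccl1, was at 0.804 and 1.52 CPM in GFP + Plum, 6.60 and 10.4 in T-bet + Plum, 1.34 and 2.03 in GFP + GATA3 and 26.4 and 24.5 in T-bet + GATA3. The line with both factors had the highest Ccr8 level, and the log2 FC with T-bet was 2.88 ± 0.37 (FDR = 0.00389, edgeR) without ectopic GATA3 and 3.88 ± 0.36 (FDR = 0.000918) with it. Cxcr3, the receptor of Cxcl10, rose by 2.40 ± 0.46 (FDR = 0.0210, edgeR) and 1.94 ± 0.45 (FDR = 0.0459) on the log2 scale.

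Cxcr6, whose ligand Cxcl16 had 0 counts, was at 47.5 and 16.7 CPM in GFP + Plum, 99.9 and 129 in T-bet + Plum, 38.8 and 31.2 in GFP + GATA3 and 194 and 105 in T-bet + GATA3. It did not pass without ectopic GATA3 (log2 FC 1.83 ± 0.46, FDR = 0.0609, edgeR) and rose with it (2.10 ± 0.47, FDR = 0.0397). Ccr4, the receptor of Ccl22, had the opposite direction, at 20.5 and 14.5 CPM in GFP + Plum, 7.84 and 9.78 in T-bet + Plum, 43.5 and 52.1 in GFP + GATA3 and 13.5 and 10.8 in T-bet + GATA3. It fell by 1.98 on the log2 scale with T-bet in cells with ectopic GATA3 (FDR = 0.00221, edgeR), and the fold was under the threshold without (-0.98 ± 0.23, FDR = 0.0440). GFP + GATA3 had the highest Ccr4 level of the 4 lines, but the log2 FC against GFP + Plum did not pass (1.45 ± 0.22, FDR = 0.144, edgeR).

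**Figure D4:**
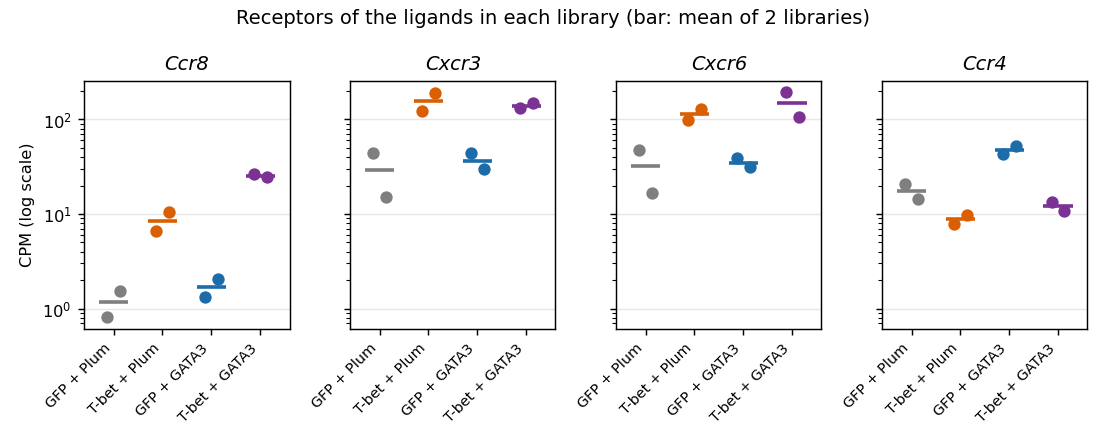
Level of 4 receptors in each library, in CPM on a log scale, by line; points are libraries 1 (left) and 2 (right) and bars are the mean of 2 libraries. Ccr8, Cxcr3 and Cxcr6 are higher in the 4 libraries with T-bet, and Ccr4 is lower.

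The rest of the chemokine ligand family was nearly silent. Of 28 other ligands, 9 had 0 counts in all libraries and 4 passed the filter (Ccl25, Ccl19, Ccl28 and Cxcl9). None was called in any of the 5 comparisons by edgeR. Ccl25, a thymic ligand, was at 9.13 to 11.9 CPM in every library. Cxcl9, like Cxcl10 an interferon-induced ligand of Cxcr3, reached 1.95 CPM in T-bet + GATA3 library 1 and was at most 0.124 CPM in the libraries without T-bet, with a log2 FC of 3.27 (FDR = 0.129, edgeR) without ectopic GATA3 and 3.87 (FDR = 0.0669) with it.

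Markers of other cell types were read beside the ligands. The CD3 chains Cd3e, Cd3d and Cd3g were between 68.9 and 273 CPM in every library, and Cd4 was between 0.571 and 4.85 CPM. The 7 macrophage and monocyte markers summed to 1.18 to 1.82 CPM in the libraries without T-bet and 0.333 to 0.615 CPM in those with it. Csf1r was at 0 in every library, with or without T-bet, except GFP + GATA3 library 1 (0.0957 CPM). The 3 dendritic cell markers summed to 5.32 to 9.89 CPM without T-bet and 1.49 to 4.11 CPM with it, and the 3 fibroblast markers to 12.0 to 25.0 CPM and 3.11 to 5.74 CPM. The sums of these lists were lower in the lines where the ligands were higher. The dendritic cell sum was mostly Flt3. Zbtb46 and Siglech were at most 0.333 CPM, and Zbtb46 was highest in T-bet + GATA3 library 2. The fibroblast sum was mostly Pdgfra, and Col1a1 and Col1a2 were at most 0.380 CPM. Of the macrophage and monocyte markers, only Lyz2 and Itgam passed the filter on low counts. The 3 natural killer cell markers summed to at most 0.433 CPM, with Ncr1 at 0 in every library, whereas the 3 B cell markers summed to 0.928 to 2.49 CPM without T-bet and 3.35 to 4.85 CPM with it, and were thus higher in the lines where the ligands were higher. That sum was mostly Cd22, called higher in T-bet + Plum than in GFP + Plum (log2 FC 2.35 ± 0.46, FDR = 0.0227, edgeR), and Cd79a and Ms4a1 were at most 0.254 CPM. Of the 7 T cell markers, 2 (Lck and Cd2) were called higher in T-bet + Plum than in GFP + Plum, against 2.12% of all genes. In T-bet + GATA3 against GFP + GATA3, 1 (Cd2) was called higher, against 1.99% of all genes. None of the others was called in either, and the libraries of Cd3e, Cd3g and Thy1 overlapped between T-bet + Plum and GFP + Plum. The part of the marker differences in the ligand results was not tested.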

How the data were processed

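RNA-seq of 4 EL4 lines with 2 libraries each was analysed. The authors trimmed reads with Trim Galore, checked them with FastQC and quantified 136535 Gencode transcripts per library (GRCm38) with kallisto, whose versions are not given in the sources used here. They deposited unnormalized estimated counts, which can be fractions, and TPM, which are scaled for effective length and to the same total per library. The methods and the file labels name different Gencode releases. Whether the counting used strand is not given in the sources used here, so reads from overlapping genes on opposite strands may not be separable.

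Estimated counts were summed per gene (54146 genes) and rounded. The main tool was edgeR 4.0.16 (R 4.3.3) with TMM, filterByExpr (14791 genes kept), 1 fit of the 4 lines with 4 residual degrees of freedom, the quasi-likelihood test and Benjamini-Hochberg adjustment over all genes tested. Standard errors are approximate, from the log2 FC and the F statistic. TPM were summed per gene and used for levels between genes. Of the 10 ligands, 8 passed the filter. The named genes were all 10 ligands, members of the other lists (receptors, other ligands, genes beside the cluster) called in at least 1 of the 5 pairwise comparisons (at most 4 per list, by the size of the log2 FC), the nearest tested gene on each side of the cluster, Tbx21 and Gata3. Ccr4, other ligands and receptors named without a call, and single markers were chosen after their values were seen. Some genes of the lists are not reported here. The members, the lists and the tests were chosen with earlier results of these data known, so list counts are descriptions.

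Alternatives were DESeq2 1.42.0 with transcript length offsets, RLE scaling, library size scaling, no filter on low counts, the FDR alone, a replicate block, each library left out and deposited TPM. The fit was tested on simulated data. Between the 2 libraries of a line the chi-square over its degrees of freedom was 9.95 to 30.4, above sampling noise. Tables were made in Python 3.11.15 with pandas 2.3.3 and numpy 2.4.6, and figures in matplotlib 3.10.9.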

Additional observations from a re-analysis of the deposited data

How the results depend on the processing

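The 5 ligands called with T-bet (Ccl3, Ccl4, Ccl9, Xcl1 and Ccl1) kept their direction in both T-bet comparisons under every alternative run, and their only lost call in any comparison was Ccl9 in T-bet + GATA3 against GFP + Plum without T-bet + GATA3 library 1 (FDR = 0.0557, edgeR). Of 624 tested values of single ligands under alternatives, 587 kept direction and side of the threshold, 24 passed it anew, 1 no longer passed and 12 changed sign. The 40 values from deposited TPM, which have no test, kept their direction and moved by less than the standard error. The sign changes arose when 1 library was left out. Over such fits, Ccl22 ranged from -2.32 to 0.54 in GFP + GATA3 against GFP + Plum (above 0 without GFP + Plum library 1), and Cxcl10 from -0.14 to 1.87 in T-bet + GATA3 against GFP + GATA3 (below 0 without T-bet + GATA3 library 1). In T-bet + GATA3 against T-bet + Plum, Ccl5 ranged from -1.17 to 0.59 and Ccl22 from -1.14 to 0.47, both above 0 without T-bet + Plum library 1, and Ccl22 also (0.37) without T-bet + GATA3 library 2. In the interaction, Ccl5 ranged from -0.13 to 1.62, Ccl9 from -0.61 to 1.37, with -0.18 and -0.41 between, Ccl22 from -0.74 to 2.12, with -0.027 between, and Cxcl10 from -0.80 to 1.20.

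With 1 library left out, the genes called were 201 to 444 for T-bet + Plum against GFP + Plum (446 with all libraries), 0 to 5 for GFP + GATA3 against GFP + Plum (3), 260 to 354 for T-bet + GATA3 against GFP + Plum (386), 197 to 475 for T-bet + GATA3 against GFP + GATA3 (421), 1 to 8 for T-bet + GATA3 against T-bet + Plum (5) and 0 to 3 for the interaction (0). The ligands called were 5 to 6, 0 to 1, 4 to 6, 5 to 6, 0 and 0 in the same order. A line left with 1 library is assumed to vary like the others. Without the filter on low counts the genes called were 814, 138, 762, 813, 124 and 145 in that order, and ligands were called in the comparisons where there had been none, 4 in GFP + GATA3 against GFP + Plum, 1 in T-bet + GATA3 against T-bet + Plum (Cxcl10) and 2 in the interaction (Ccl3 and Ccl4). The FDR alone gave 917, 721 and 854 genes in the 3 comparisons with T-bet. DESeq2 gave 26 and 24 genes in the 2 comparisons of ectopic GATA3 and 10 in the interaction, and 3 ligands in GFP + GATA3 against GFP + Plum. Why the unfiltered and DESeq2 counts are larger was not tested.

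Library numbers are shared between lines, but same-numbered libraries did not deviate together throughout, with correlations of deviations over genes between -0.0455 and 0.302 for the 6 pairs of lines, so the number was not taken as a pairing. With it as a replicate block, the genes called were 536, 4, 464, 531, 4 and 0, and Ccl22 was called in T-bet + Plum against GFP + Plum (log2 FC 1.58, FDR = 0.0107, edgeR) and, with Ccl5 (2.06, FDR = 0.00731), in T-bet + GATA3 against GFP + GATA3 (2.26, FDR = 0.00293). It changed no other ligand call. Depth limits Cxcl10, with 16 to 85 counts per library, Ccl6 and Cxcl16, with 0, and Xcl1 in GFP + GATA3, with 6 and 9.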

Other observations

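Ccl22, Ccl9, Ccl5, Ccl1 and Xcl1 were higher in library 1 than in library 2 of all 4 lines, which was so for 12.7% of all genes tested. For Ccl22 the ratio of library 1 to library 2 was 5.32 in GFP + Plum, 2.21 in T-bet + Plum, 3.72 in GFP + GATA3 and 2.86 in T-bet + GATA3. For Xcl1 the ratio was 1.01 to 1.48. Whether a library number stands for a shared harvest day is not stated in the labels.

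Transcripts of ligand genes also differed in how they were split. The leading transcript of Ccl1 held 89.3% to 93.2% of its counts in every library, that of Ccl22 91.7% to 97.7%, that of Ccl5 92.4% to 95.5% and that of Cxcl10 91.3% to 100%. Genes overlapping a ligand on the opposite strand were E230016K23Rik (beside Ccl6), Gm20743 (Xcl1), Art3 (Cxcl10) and Zmynd15 (Cxcl16), which together had few counts over all 8 libraries, between 0 and 27.1 each.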
